A study of Rattus norvegicus with 12 samples.

Results

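Rbfox1 and 9 other regulators of alternative splicing in muscle were followed in primary cultures of heart muscle cells from the ventricles of newborn rats. The 10 genes are Rbfox1, Rbfox2, Rbm20, Rbm24, Mbnl1, Mbnl2, Celf1, Celf2, Ptbp1 and Ptbp2. They were taken by symbol from the table of gene counts, and all 10 matched 1 row each of the 32883 genes listed. Rbfox1 was put at the head of the set because earlier results of these data showed it higher with wild-type KAT6A, so it was chosen by its CPM in WT against the other groups, and its own values are a description here and carry no test. The other 9 were added as known splicing regulators of muscle.

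All cells received an adenovirus and were collected 2 days later. The control virus carried LacZ, a bacterial gene. The other viruses carried human KAT6A, a histone acetyltransferase, as the wild-type protein (WT), as the acetylation-resistant mutant K815R or as the acetylation-mimetic mutant K815Q. Each of the 4 groups has 3 libraries, 12 in all, and none of the labels says whether replicates came from separate cultures or litters, so p-values measure the spread between these libraries, which may be technical. The cells of every group had an adenovirus, and no group without virus was analysed here.

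Splicing regulators bind short motifs in precursor mRNA and decide whether a nearby exon is kept or skipped. RBFOX proteins recognise the motif UGCAUG, and their effect depends on whether it lies before or after the exon. In heart muscle, MBNL proteins and RBM20 promote adult isoforms of sarcomere and calcium handling genes, CELF proteins act against MBNL at many exons, and PTBP proteins repress muscle and neuronal exons. Gene counts give the summed level of all isoforms of a gene, so the values below are levels of the regulators and not splicing.

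Each library held from 19102048 to 25451686 reads counted to genes. Levels are given as CPM, the reads of a gene relative to all gene counts of its library, after TMM scaling, which evens out differences in library composition. Rat Kat6a, which also collects reads of the delivered human gene as far as they align, stood at 45.2 to 53.6 CPM in LacZ, 82.0 to 106 in WT and 101 to 122 in K815R. In the libraries labelled K815Q its mean was 46.3 ± 3.35 CPM (SD, n = 3), beside 48.1 ± 4.75 in LacZ, and the ranges overlap. A raised Kat6a level was thus not seen there, and these are named as the libraries labelled K815Q throughout. Prkaa2, which encodes a subunit of AMPK, stood at 54.8 to 72.7 CPM in LacZ and 78.1 to 95.4 in K815R. In WT it stood at 435 to 633 CPM and in the libraries labelled K815Q at 1134 to 1232, and the reason was not tested. The 10 cardiomyocyte marker genes, led by the heavy chain gene Myh6 and the natriuretic peptide gene Nppa, summed to 55674 to 60397 CPM in LacZ, 57909 to 59973 in WT, 62602 to 64777 with K815R and 57458 to 60648 for the libraries labelled K815Q. Fibroblast markers, led by Col1a1 and Col3a1, summed to between 11048 and 12889 CPM over all libraries, so the cultures held RNA of both. Macrophage markers summed to 66.9 to 87.7 CPM in LacZ and 87.4 to 99.4 in the other groups, Schwann cell markers to 60.9 to 66.0 in LacZ and 47.4 to 58.1 in the others, endothelial markers to 170 to 250 over all libraries and smooth muscle markers to 6908 to 7738. The part of these differences in the results below was not tested.

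Rbfox1 (ENSRNOG00000002827) encodes an RNA-binding splicing factor known from heart, skeletal muscle and brain. It stood at 4.15, 3.16 and 4.43 CPM in the LacZ libraries. In WT the values were 7.81, 6.51 and 6.65 CPM. The K815R libraries stood at 3.86, 3.59 and 2.95 CPM, and those labelled K815Q 6.03, 5.33 and 3.23 CPM. All 3 WT libraries lay above the 9 others, and the lowest WT value was close to the highest value of the libraries labelled K815Q. The LacZ and K815R ranges overlapped, and the libraries labelled K815Q ran from inside the K815R range to just below WT.

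Ordered by mean, Rbfox1 was 6.99 ± 0.712 CPM in WT, 4.86 ± 1.46 in the libraries labelled K815Q, 3.91 ± 0.663 in LacZ and 3.47 ± 0.467 in K815R (SD, n = 3 each). The 3 lower groups overlapped with their neighbours in this order. On the log2 scale WT exceeded LacZ by 0.83 and K815R differed from WT by -1.01. The libraries labelled K815Q differed from WT by -0.52 and from LacZ by 0.31, and K815R differed from LacZ by -0.18. Without K815Q replicate 3, the lowest of its group, the difference from LacZ was 0.53 and that from WT was -0.30, and without K815Q replicate 1, the highest, they were 0.13 and -0.70. K815R against LacZ ran from -0.31 without LacZ replicate 2 to -0.08 without K815R replicate 3. Over the fits that left out each library in turn, WT exceeded LacZ by 0.70 to 0.93. Since Rbfox1 was chosen for high values in WT, its differences from WT can be too large, and these fits do not test them.

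These levels rest on few reads. Rbfox1 had 62 to 154 reads per library, and counting alone gives a relative error of 8.06% to 12.7% at that depth. The exact 95% Poisson intervals, which cover counting error only, ran from 5.42 to 7.75 CPM in the lowest WT library and from 4.98 to 7.23 CPM in the highest library labelled K815Q. Those intervals overlap. The highest LacZ library had an interval of 3.63 to 5.34 CPM. Such intervals leave out the spread between libraries and the choice of Rbfox1 for its values, so they do not test the groups. Mean Kat6a is given here beside mean Rbfox1, and a relation between them was not tested. WT had mean Kat6a at 93.0 CPM and LacZ at 48.1 CPM. K815R had the highest mean Kat6a, 108 CPM, with the lowest mean Rbfox1. The libraries labelled K815Q had Kat6a at 46.3 CPM, with mean Rbfox1 between the means of WT and LacZ. The Rbfox1 ranges of LacZ, K815R and the libraries labelled K815Q overlap.

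**Figure D1:**
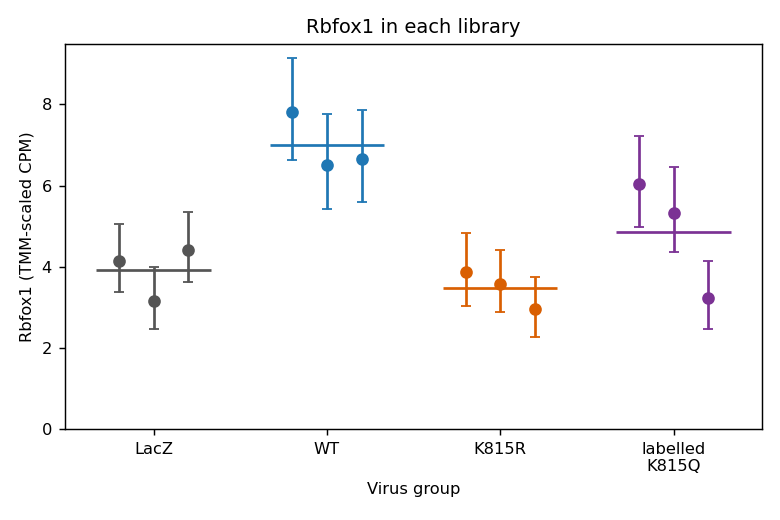
Rbfox1 in TMM-scaled CPM (vertical axis) for each library of the 4 virus groups (horizontal axis). Points are libraries with exact 95% Poisson intervals for counting error, and bars are group means; the 3 WT points, at 6.51 to 7.81 CPM, lie above the 9 others, whose highest is 6.03.

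Neurons also express Rbfox1, so neuronal markers are given beside it. Among neuronal markers, Snap25 and Th had at most 3 reads in every library, Elavl3, the paralog Rbfox3, Stmn2 and Syt1 had at most 9, and Elavl4 at most 16. The sum of the list was 39.8 to 42.1 CPM in LacZ, 45.4 to 48.9 in WT, 45.5 to 48.1 with K815R and 47.2 to 55.6 for the libraries labelled K815Q, and nearly all of it came from Tubb3 and Dbh. The LacZ sums lay below those of every other library. The part of this sum in the Rbfox1 values was not tested. In bulk RNA, more cells that express a gene and more RNA per cell cannot be told apart.

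RefSeq's table of promoter windows for the assembly GRCr8 held 8 windows for 7 of the 10 genes, each 300 bases long with 250 before the start and 50 after it. They are shown for Rbfox1, for Celf1 and, as the richest in CG, for Mbnl1, 5′ to 3′ on the gene's strand, with each CG pair in capitals. Rbfox1 (GRCr8 chr10:8999342-8999641, minus strand), Celf1 (chr3:97434886-97435185, plus strand) and Mbnl1 (chr2:146819784-146820083, plus strand) read as follows.
Rbfox1: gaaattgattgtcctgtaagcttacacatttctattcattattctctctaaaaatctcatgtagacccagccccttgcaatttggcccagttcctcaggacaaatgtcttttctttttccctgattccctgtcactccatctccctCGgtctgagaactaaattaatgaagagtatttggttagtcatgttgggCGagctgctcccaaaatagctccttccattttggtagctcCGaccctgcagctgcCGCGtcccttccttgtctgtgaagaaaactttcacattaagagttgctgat
Celf1: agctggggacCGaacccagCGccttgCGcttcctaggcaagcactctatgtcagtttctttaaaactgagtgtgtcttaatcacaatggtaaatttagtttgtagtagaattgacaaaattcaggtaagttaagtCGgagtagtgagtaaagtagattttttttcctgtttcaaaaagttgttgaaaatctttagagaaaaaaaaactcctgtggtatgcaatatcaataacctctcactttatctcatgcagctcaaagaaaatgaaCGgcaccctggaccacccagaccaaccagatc
Mbnl1: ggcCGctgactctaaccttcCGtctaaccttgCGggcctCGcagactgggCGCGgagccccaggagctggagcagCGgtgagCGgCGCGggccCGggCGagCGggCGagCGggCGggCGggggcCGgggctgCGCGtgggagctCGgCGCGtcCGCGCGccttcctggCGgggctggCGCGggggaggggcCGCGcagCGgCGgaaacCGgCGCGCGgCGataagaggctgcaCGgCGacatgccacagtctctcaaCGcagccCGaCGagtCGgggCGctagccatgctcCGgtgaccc
The Rbfox1 window held 5 CG pairs and 43.7% G and C, against a median of 7 pairs and 51.7% over 33469 windows of this length. Celf1 had 5 pairs as well. Mbnl1 had 46, more than 98.6% of all windows, and Ptbp2, Rbm24 and Ptbp1 had 39, 38 and 27. The 2 windows of Mbnl2 had 12 and 4. The E-box motif CANNTG, whose letters read the same on both strands, occurred in 2 places in the Rbfox1 window, in 1 in that of Rbm24, in 1 and 5 in the windows of Mbnl2 and in none of those of Celf1, Mbnl1, Ptbp1 and Ptbp2, and 72.1% of all windows held it. These are counts of letters in the annotated windows, and no binding was measured.

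With 9 genes and 3 libraries per group, few calls would not show unchanged levels. Few were made among the 9 other regulators. None of them passed the test for any difference among the 4 groups in the quasi-likelihood test of edgeR, with p adjusted after Benjamini and Hochberg over 14063 genes, in which 8.13% of all genes were called. At an unadjusted p under 0.05 there were 3, Celf1, Ptbp1 and Rbm20, and DESeq2 called 0 as well. The number of all genes at that unadjusted threshold was not counted. In pairs, 0 of 9 passed in WT against LacZ, where 5.34% of all genes were called, 1.95% higher and 3.39% lower. There were 0 of 9 in K815R against LacZ (2.47% of all genes, 0.74% higher and 1.74% lower), 0 in K815R against WT (2.2%, 1.32% higher and 0.882% lower), 0 in the libraries labelled K815Q against WT (1.07%, 0.718% higher and 0.356% lower) and 0 in K815R against the libraries labelled K815Q (0.363%, 0.213% higher and 0.149% lower). At an unadjusted p under 0.05 these comparisons held 2, 1, 1, 3 and 0 of the 9, and DESeq2 called 0 in each. Of all 14063 genes, 2680, 1938, 1934, 2019 and 1598 lay under that unadjusted p. In the libraries labelled K815Q against LacZ, Celf1 alone passed, lower, where 7.85% of all genes were called, 2.87% higher and 4.98% lower. Leaving the libraries labelled K815Q out of the fit also gave 0 calls for WT and K815R against LacZ, for K815R against WT and for any difference among these 3 groups.

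**Figure D2:**
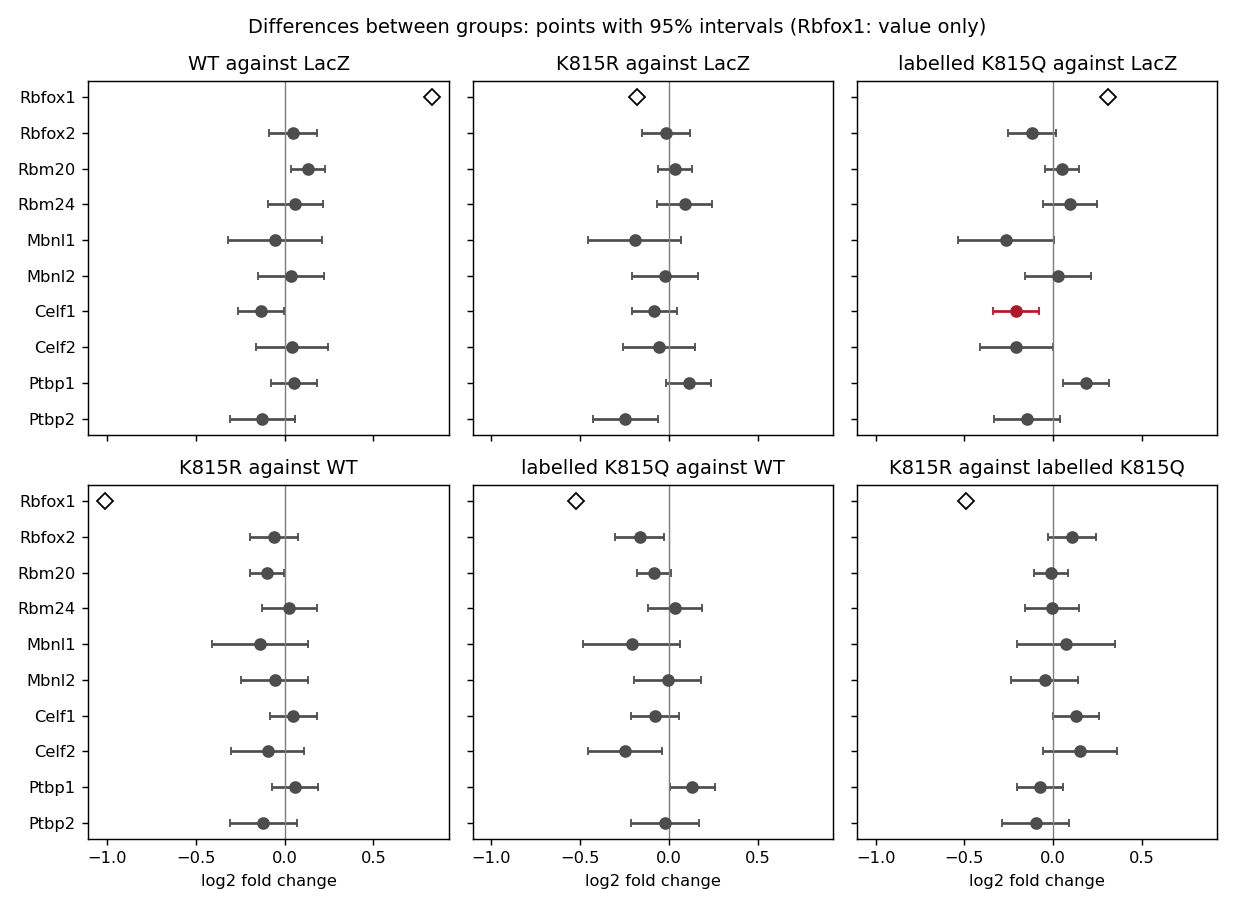
Log2 fold changes (horizontal axis) of the 10 regulators (vertical axis) in the 6 comparisons of groups, with 95% intervals for the 9 that were tested. The open diamond is Rbfox1, shown as a value only; Celf1 in red is the 1 regulator that passed, and most other intervals include 0.

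Rbfox2, the paralog of Rbfox1, binds the same motif. It stood at 56.1, 57.1 and 61.6 CPM in LacZ and at 60.3, 56.3 and 63.8 in WT. In K815R it stood at 55.7, 62.6 and 54.6 CPM, and in the libraries labelled K815Q at 49.7, 56.6 and 54.7. The groups overlapped in every comparison. WT differed from LacZ by a log2 fold change of 0.05, with a 95% interval of -0.09 to 0.18. The same difference was 0.83 for Rbfox1, which was chosen for its high values in WT, so its contrast with Rbfox2 tests nothing. The lowest value against WT was that of the libraries labelled K815Q, -0.17 (adjusted p 0.248 in edgeR).

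Rbm20 represses exons of titin and of calcium handling genes, and mutations in its human counterpart cause dilated cardiomyopathy. It stood at 218, 218 and 228 CPM in LacZ and at 240, 245 and 243 in WT. The K815R libraries held 222, 233 and 223 CPM and those labelled K815Q 225, 237 and 223. All 3 WT libraries lay above the 9 others, by a small margin. The share of all genes with this order was not counted. In WT against LacZ alone, 12.3% of all genes lay wholly higher. WT exceeded LacZ by 0.13 (SE 0.0459) on the log2 scale, with an adjusted p of 0.0967, and K815R differed from WT by -0.10, with an adjusted p of 0.329, edgeR. Neither passed the threshold.

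Rbm24 promotes inclusion of muscle exons and is needed for heart development. Over all libraries it ran from 146 to 180 CPM, with group means of 154 ± 8.40 in LacZ, 160 ± 12.0 in WT, 163 ± 14.8 with K815R and 164 ± 14.2 for the libraries labelled K815Q (SD, n = 3 each). The groups overlapped in all 6 comparisons, with log2 fold changes from -0.01 to 0.09. The intervals of the 6 differences lay between -0.16 and 0.25.

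Mbnl1 and Mbnl2 are the muscleblind factors that are sequestered by repeat RNA in myotonic dystrophy. Mbnl1 stood at 11.8, 12.6 and 15.0 CPM in LacZ and at 12.3, 12.7 and 13.1 in WT. K815R held 11.7, 11.5 and 11.4 CPM, below every library of LacZ and WT, and the libraries labelled K815Q 8.58, 13.9 and 10.3. The log2 fold change of K815R was -0.19 against LacZ (adjusted p 0.547) and -0.14 against WT (adjusted p 0.715, edgeR). The libraries labelled K815Q differed from LacZ by -0.26 (adjusted p 0.216 in edgeR), and without K815Q replicate 2 the value was -0.48 (adjusted p 0.0134 in edgeR). Over all leave-one-out fits the value ran from -0.48 to -0.12, the latter without K815Q replicate 1 (adjusted p 0.670 in edgeR). Mbnl2 ran from 129 to 165 CPM, its groups overlapped in all 6 comparisons, and the intervals of the 6 differences lay between -0.24 and 0.22.

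Celf1 was the member that passed a test. It binds GU-rich sequences, and its level falls in the heart after birth. It stood at 50.4, 49.1 and 54.7 CPM in LacZ and at 41.6, 48.2 and 43.5 in the libraries labelled K815Q, with no overlap. The WT libraries held 48.9, 46.8 and 45.2 CPM, also below every LacZ library, and those of K815R 46.4, 49.8 and 49.4. The log2 fold change against LacZ was -0.21 (SE 0.0631) in the libraries labelled K815Q, with an adjusted p of 0.0437 in edgeR. WT gave -0.13 (adjusted p 0.258) and K815R -0.08 (adjusted p 0.619, edgeR). Celf1 in the libraries labelled K815Q did not differ by the test from WT (-0.08, 95% interval -0.21 to 0.05).

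The call of Celf1 is fragile. It was kept in 5 of the 12 leave-one-out fits, with log2 fold changes from -0.27 to -0.16. It was lost without LacZ replicate 1 (-0.22), LacZ replicate 2 (-0.24), LacZ replicate 3 (-0.16), WT replicate 2 (-0.21), K815R replicate 3 (-0.21), K815Q replicate 1 (-0.16) or K815Q replicate 3 (-0.19), with adjusted p up to 0.224 in edgeR. With the other 6 libraries kept out of the model its adjusted p was 0.0637 in edgeR, and under DESeq2 it was 0.0466.

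Celf2, the paralog of Celf1, stood at 12.3, 15.2 and 16.3 CPM in LacZ and at 14.4, 15.6 and 15.0 in WT. K815R held 13.2, 15.1 and 13.7 CPM, and the libraries labelled K815Q 11.3, 13.5 and 13.1, below every WT library. The difference from WT was -0.25 on the log2 scale (SE 0.102, adjusted p 0.261) and from LacZ -0.21 (adjusted p 0.206, edgeR). Without LacZ replicate 1 the second value was -0.32 and passed (adjusted p 0.0471 in edgeR). Without LacZ replicate 3 it was -0.12 (adjusted p 0.596 in edgeR).

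Ptbp1 and Ptbp2 bind pyrimidine-rich tracts, and Ptbp1 is known to promote skipping of an exon of Ptbp2, which lowers the latter's mRNA. Ptbp1 stood at 103, 87.6 and 93.8 CPM in LacZ, 99.8, 97.1 and 98.1 in WT, 94.0, 111 and 102 with K815R, and 112, 108 and 103 for the libraries labelled K815Q. The last group lay above every LacZ and WT library, the LacZ maximum of 103 by less than 1 CPM. Its log2 fold change against LacZ was 0.18 (SE 0.0618), with an adjusted p of 0.0668 in edgeR, and it passed without LacZ replicate 1 (0.25, adjusted p 0.0229) and without K815R replicate 2 (0.18, adjusted p 0.0387, edgeR). Without LacZ replicate 2 it was 0.13 (adjusted p 0.276 in edgeR). Ptbp2 stood at 17.1, 18.0 and 20.1 CPM in LacZ, 17.7, 16.6 and 16.3 in WT, 15.3, 14.7 and 16.6 with K815R, and 15.1, 18.9 and 15.8 for the libraries labelled K815Q. K815R lay below every LacZ library, with a log2 fold change of -0.25 (SE 0.0885) and an adjusted p of 0.176 in edgeR.

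**Figure D3:**
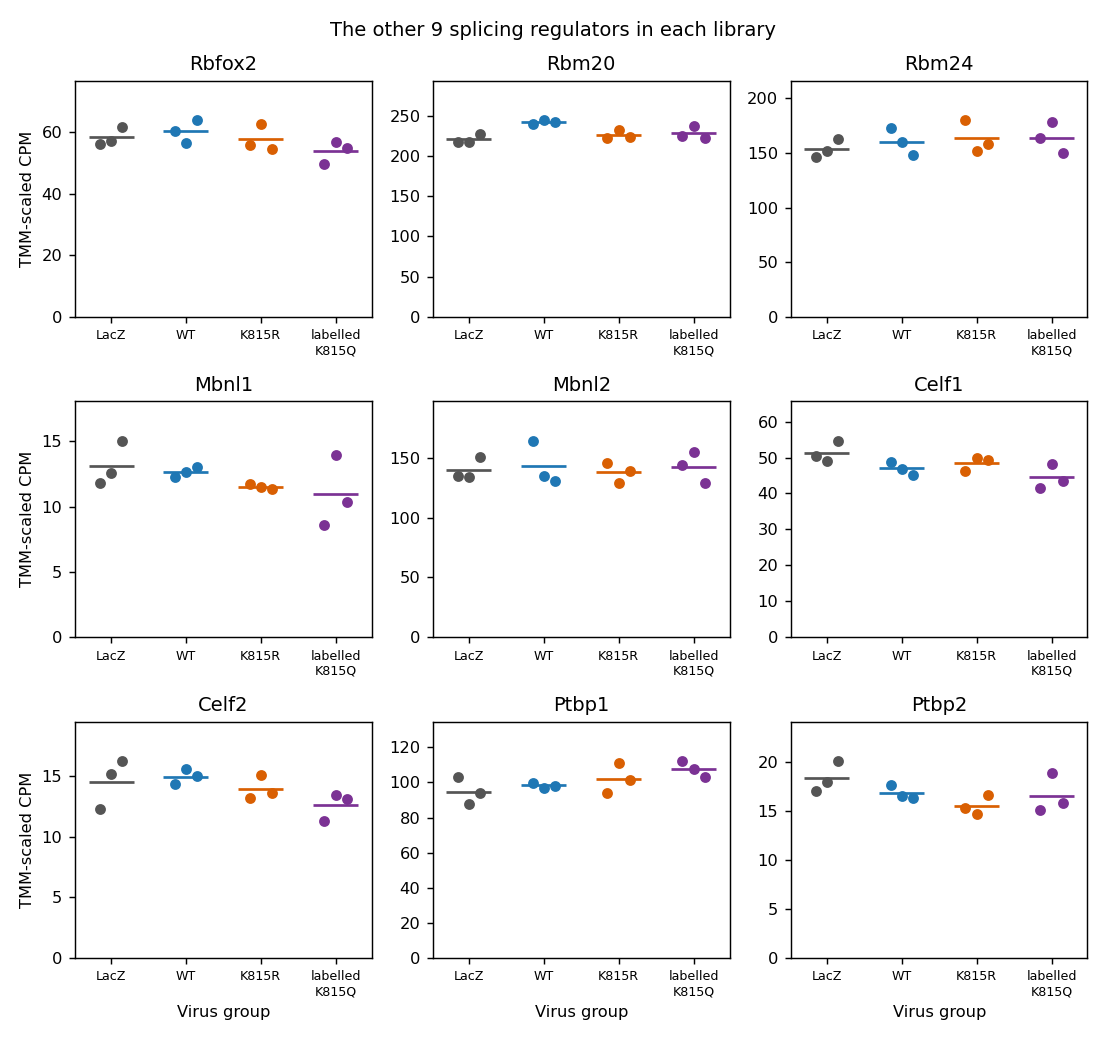
TMM-scaled CPM (vertical axes, from 0) of the 9 regulators other than Rbfox1 in each library, by virus group (horizontal axes), with bars at the group means. Rbm20 in WT, at 240 to 245 CPM, is tightly grouped above the other libraries, and most other groups overlap.

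Some of the 9 lay wholly above or below another group in CPM. In WT against LacZ, Rbm20 lay higher and Celf1 lower in all libraries, 1 of 9 in each direction, where 12.3% of all genes lay wholly higher and 12.3% wholly lower. Mbnl1 and Ptbp2 were the 2 wholly lower in K815R against LacZ (9.6% of all genes), and 0 were wholly higher (9.11%). In the libraries labelled K815Q against LacZ, Ptbp1 lay wholly higher (13.9% of all genes) and Celf1 wholly lower (14.5%). K815R against WT had Rbm20 and Mbnl1 wholly lower (9.48% of all genes) and 0 wholly higher (9.49%), and the libraries labelled K815Q against WT had Ptbp1 wholly higher (9%) and Rbm20 and Celf2 wholly lower (10.3%). K815R and the libraries labelled K815Q overlapped for all 9, where 8.28% of all genes lay wholly higher and 7.69% wholly lower. With so few members these counts show nothing particular to the set.

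The balance between paralogs was then read as the ratio of their read counts within each library, which needs no scaling between libraries. It is a ratio of reads and not of transcripts, since gene length is not taken into account, so only its differences between libraries are read. Rbfox2 had 13.5 to 18.1 reads for each read of Rbfox1 in LacZ, 7.73 to 9.59 in WT, 14.4 to 18.5 with K815R and 8.24 to 16.9 for the libraries labelled K815Q. WT lay apart from LacZ and K815R, and K815Q replicate 1, at 8.24, lay inside the WT range. This pair has no test, because Rbfox1 was chosen for its values. For the other 3 pairs, the exact permutation test over all 369600 assignments of the 12 libraries to groups gave p = 0.305 for Mbnl1 to Mbnl2, 0.291 for Celf1 to Celf2 and 0.105 for Ptbp1 to Ptbp2, each 0.305 after Benjamini-Hochberg adjustment over the 3 pairs.

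The Ptbp1 to Ptbp2 ratio differed most between group means among the tested pairs. Its mean log2 ratio was 2.37 ± 0.200 in LacZ, 2.54 ± 0.0450 in WT, 2.72 ± 0.177 with K815R and 2.70 ± 0.194 for the libraries labelled K815Q (SD, n = 3 each). K815R lay above every LacZ library, at 2.61 to 2.92 against 2.22 to 2.59, and the other groups overlapped LacZ. The largest difference of means was 0.35 for this pair, 0.31 for Mbnl1 to Mbnl2 and 0.18 for Celf1 to Celf2. It was 0.95 for Rbfox1 to Rbfox2, but Rbfox1 was chosen for its values, so this is no comparison with the tested pairs.

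**Figure D4:**
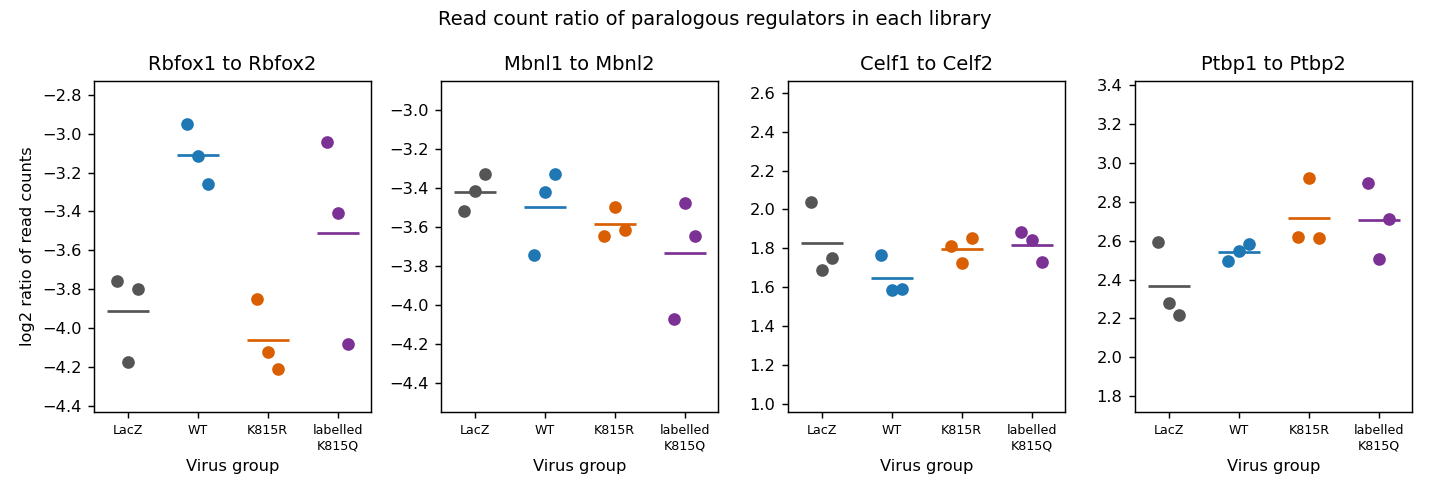
Log2 ratio of the read counts of each pair of paralogs (vertical axes, all spanning the same number of log2 units) in each library, by virus group (horizontal axes), with bars at the group means. Rbfox1 to Rbfox2 separates the 3 WT libraries (-3.26 to -2.95) from LacZ and K815R (at most -3.76), and the groups of the other pairs lie closer together. Rbfox1 was chosen for its high values in WT.

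Genes whose pattern over the 12 libraries was most like that of Rbfox1 were ranked by Pearson correlation of log2 CPM among 10261 genes of at least 5 CPM. These correlations are a description with no p, and the libraries share their groups and their scaling. The highest were Pla2r1 (r = 0.92), Impact (0.91), Golga1 (0.91), Mtmr11 (0.90) and Nars (0.89), and the lowest were Traf4 (-0.90), Mta3 (-0.89) and Egln1 (-0.88). Spearman's rho was 0.85 to 0.89 for the first 5 and -0.88 to -0.87 for the last 3. Without WT replicates 1 and 3, the 2 libraries farthest from the median of Rbfox1, r was 0.82 to 0.90 and -0.92 to -0.80. Over all genes compared, 5% lay above 0.57 and 5% below -0.58. Pla2r1, a phospholipase receptor, stood at 14.6 ± 0.767 CPM in WT, 12.1 ± 0.797 in LacZ, 11.7 ± 0.113 with K815R and 12.5 ± 1.15 for the libraries labelled K815Q (SD, n = 3 each).

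Among the 9 regulators, Rbm20 was most like Rbfox1, with r = 0.77 (rho 0.72) and rank 65 of 10261. After group means were taken off each library, its r was 0.37. Mbnl2 and Rbm24 had r = 0.48 and 0.32 over all libraries and 0.64 and 0.59 within groups. Rbfox2 stood at 0.17 and Celf1 at -0.23. Prkaa2, which encodes a catalytic subunit of AMPK had r = 0.57 with Rbfox1 and rank 502, and Kat6a had r = 0.12. Prkaa2 stood at 54.8 to 72.7 CPM in LacZ, 435 to 633 in WT and 78.1 to 95.4 in K815R, and was highest in the libraries labelled K815Q, at 1134 to 1232, where Rbfox1 was lower than in WT. Without WT replicates 1 and 3, r was 0.65 for Rbm20 and changed sign for Rbfox2 (-0.25) and Kat6a (-0.21).

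The wider splicing machinery was taken from lists of known genes. Of 61 other splicing regulators, 59 were listed and 54 passed the filter on low counts, and 7 of these differed among the groups in edgeR, 13.0% beside 8.13% of all genes. In the libraries labelled K815Q against LacZ 9 were called, 8 higher and 1 lower, 16.7% beside 7.85% of all genes (2.87% higher and 4.98% lower). The 3 higher with the lowest p were Hnrnph1 (log2 fold change 0.31), which binds G-rich sequences, Srsf5 (0.25), an SR protein, and Rbm38 (0.22), a paralog of Rbm24. Clk1, a kinase that phosphorylates SR proteins, was the lower gene (-0.34). The list's median log2 fold change was 0.02, beside 0.01 over all genes. The count was 4 without LacZ replicate 2 and 4 without K815Q replicate 1. Calls over all genes, 1104 in the main fit, were 418 and 360 in these fits.

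WT against LacZ had 6 calls among these regulators, 5 higher and 1 lower, 11.1% beside 5.34% of all genes (1.95% higher and 3.39% lower). Srsf5 (0.23), Srpk3 (0.25), a muscle kinase of SR proteins, and Rbm38 (0.18) were higher, and so were Hnrnph1 (0.20) and Tra2a (0.21), named after their values were seen. Raver2, at 1.93 to 2.09 CPM in LacZ and 0.71 to 1.47 in WT, was the lower gene (-0.77), and its call was kept in 2 of the 12 leave-one-out fits and lost under DESeq2 (adjusted p 0.106), upper-quartile scaling (0.0518), the replicate block (0.0561), the separate fit of the pair (0.0668) and without the libraries labelled K815Q (0.0606). The call of Tra2a was also kept in 2 of 12, with adjusted p up to 0.276 in edgeR. That of Srsf5 was kept in all 12. That of Hnrnph1 was lost without LacZ replicate 1, LacZ replicate 2, WT replicate 1 or WT replicate 2, and that of Srpk3 without the same 4 or WT replicate 3. Rbm38 lost its call without LacZ replicate 2, LacZ replicate 3 or WT replicate 2. The median of the list was 0.03, beside 0.01 over all genes. The count was 2 without LacZ replicate 1, 1 without LacZ replicate 2, 3 without WT replicate 1 and 1 without WT replicate 2. Calls over all genes, 751 in the main fit, were 639, 378, 541 and 379 in these fits.

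Clk1 was lower than in LacZ or WT both with K815R and in the libraries labelled K815Q. The LacZ libraries held 93.2, 92.9 and 91.1 CPM and those of WT 101, 97.9 and 86.8. K815R held 79.5, 70.8 and 63.4 CPM and the libraries labelled K815Q 66.1, 74.7 and 77.6, all below every LacZ and WT library. Of all genes, 9.6% lay wholly lower in K815R against LacZ and 9.48% against WT. For the libraries labelled K815Q these shares were 14.5% and 10.3%. The log2 fold change of K815R was -0.38 against LacZ (SE 0.0753, adjusted p 0.00931) and -0.42 against WT (SE 0.0757, adjusted p 0.00689, edgeR). For the libraries labelled K815Q the values were -0.34 against LacZ (adjusted p 0.00999) and -0.39 against WT (adjusted p 0.0158, edgeR). Leave-one-out fits, 1 without each library, kept the call of K815R against WT in 12 of 12, with -0.50 to -0.34. The call against LacZ was lost in K815R without LacZ replicate 2 (-0.37) or K815R replicate 2 (-0.37), and in the libraries labelled K815Q without LacZ replicate 2 (-0.34) or K815Q replicate 1 (-0.28). The call of the libraries labelled K815Q against WT was lost without WT replicate 1 (-0.34), WT replicate 2 (-0.37) or K815Q replicate 1 (-0.32).

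Clk1 was the 1 call among these regulators in K815R against LacZ, 1.85% of the 54 beside 2.47% of all genes. It was also the 1 call in the libraries labelled K815Q against WT, 1.85% beside 1.07% of all genes. K815R against WT had 2, Clk1 and Srpk3, 3.70% beside 2.2% of all genes. Srpk3 stood at 30.4, 29.7 and 30.6 CPM in WT, above the 9 other libraries, whose highest was 28.7. How common this order is over all genes was not counted. In WT against LacZ alone, 12.3% of all genes lay wholly higher. The difference of K815R from WT was -0.26 (adjusted p 0.0325 in edgeR), and the call was lost without WT replicate 1 (-0.26), WT replicate 2 (-0.27), WT replicate 3 (-0.26), K815R replicate 1 (-0.26) or K815R replicate 2 (-0.23). K815R against the libraries labelled K815Q had 0 calls by edgeR, beside 0.363% of all genes. At an unadjusted p under 0.05 there were 9 of 54, beside 1598 of all 14063 genes. DESeq2 gave 1, beside 101 of all genes.

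**Figure D5:**
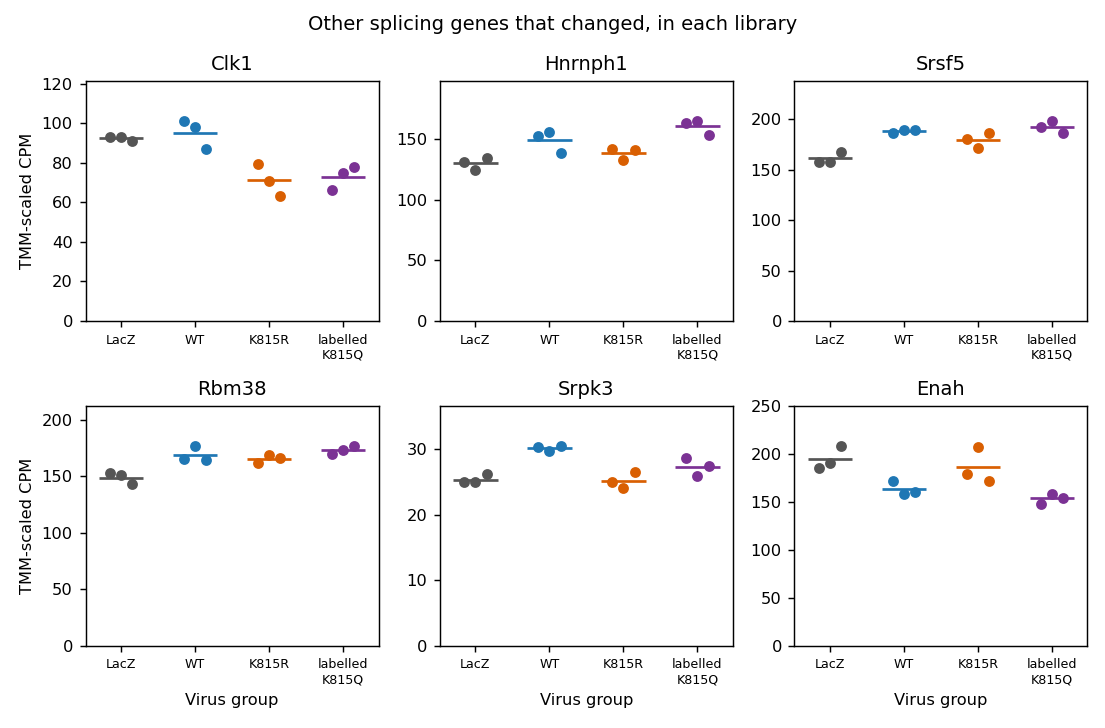
TMM-scaled CPM (vertical axes, from 0) of 6 other splicing genes and targets in each library, by virus group (horizontal axes), with bars at the group means. Clk1 in K815R and the libraries labelled K815Q (63.4 to 79.5 CPM) lies below LacZ and WT (86.8 to 101), and Srpk3 is highest in WT.

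The core spliceosome and a list of cardiac splicing targets were counted in the same way. Which regulator acts on each listed target, and in which tissue, was not checked here. Of 46 spliceosome genes 45 were tested and 0 differed among the groups in edgeR, beside 8.13% of all genes. At an unadjusted p under 0.05 there were 5, and the number of all genes there was not counted. DESeq2 called 1, beside 1175 of all 14063 genes. Snrpf, a core snRNP protein gene, was higher (0.24) and Snrnp200, a spliceosomal helicase gene, lower (-0.17) against LacZ in the libraries labelled K815Q. These 2 calls are 4.44% of the 45, beside 7.85% of all genes. The count was 1 without LacZ replicate 1, WT replicate 2, K815R replicate 3 or K815Q replicate 2. It was 0 without LacZ replicate 2, LacZ replicate 3, K815Q replicate 1 or K815Q replicate 3. Calls over all genes, 1104 in the main fit, were 1182, 1035, 916 and 1079 where the count was 1. They were 418, 507, 360 and 733 where it was 0. Of the 50 splicing targets, 46 were listed and 45 tested, and Enah differed among the groups, 2.22% beside 8.13% of all genes. This count of 1 was 6 under DESeq2, 8 without the filter, 4 with the replicate number as a block and 0 without the libraries labelled K815Q. Calls over all genes, 1143 in the main fit, were 1175, 2036, 1306 and 859 in these settings.

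Enah, an actin regulator with a muscle-specific exon, fell in the libraries labelled K815Q (log2 fold change -0.34 against LacZ) and in WT (-0.25). It stood at 185, 191 and 209 CPM in LacZ, 172, 158 and 161 in WT, 179, 207 and 172 with K815R, and 148, 159 and 155 for the libraries labelled K815Q. The fall in the libraries labelled K815Q was called in all 12 leave-one-out fits, and that in WT was lost without LacZ replicate 3 (-0.20), WT replicate 2 (-0.23) or WT replicate 3 (-0.24). Besides Enah, the genes called lower in the same comparison were Cacnb2 (-0.25), a calcium channel subunit, and Pdlim5 (-0.27), a Z-disc protein, and Rtn4 (-0.17) and Fxr1 (-0.19), which were named after their values were seen. These 5 calls are 11.1% of the 45, beside 7.85% of all genes (4.98% lower). They became 1 without LacZ replicate 2, LacZ replicate 3 or K815Q replicate 1, and 2 without K815Q replicate 3. Calls over all genes, 1104 in the main fit, were 418, 507, 360 and 733 in these fits. The median log2 fold change of the 45 was -0.06, beside 0.01 over all genes. Ldb3, which encodes a Z-disc protein, was higher in WT (0.17). The 2 calls in WT against LacZ, Ldb3 and Enah, are 4.44% of the 45, beside 5.34% of all genes. The count was 1 without LacZ replicate 1, LacZ replicate 2, WT replicate 1, WT replicate 3 or K815R replicate 3. It was 0 without WT replicate 2 and 4 without K815R replicate 2. Calls over all genes, 751 in the main fit, were 639, 378, 541, 541, 684, 379 and 839 in these fits, in that order. These are levels of the whole gene, and which exons were used was not measured.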

How the data were processed

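Poly(A) RNA of 12 libraries was sequenced as single reads, per the labels' protocols, which also describe a strand-specific, paired-end preparation. The authors deposited raw read counts per Ensembl gene. Per the submitters' processing notes the tools were Trimmomatic 0.39, HISAT2 2.2.1, HTSeq 0.6.1 and edgeR, with the build Rnor_6.0; the strand setting is not given in the sources used here, so overlapping and antisense genes are uncertain. The last 5 lines of the table are counters that name no gene and were left out; they hold reads outside features (11.7% to 12.9% of the total), reads with several alignments (25.6% to 26.9%), unaligned reads (2.69% to 3.06%) and reads ambiguous between genes (0.461% to 0.500%). Reads shared by close paralogs are therefore not counted. Chi-square per degree of freedom between replicates was 4.54 to 8.74, so no library repeats another.

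Group and replicate came from the sample titles. The filter filterByExpr, at a minimum count of 10 and a total of 15, passed 14063 genes, among them all 10 regulators. Counts were scaled by TMM and tested with edgeR 4.0.16 in R 4.3.3 (quasi-likelihood, robust) with 1 mean per group and the 12 libraries fitted together; a gene was called at a Benjamini-Hochberg adjusted p under 0.05. Log2 CPM used a prior count of 2. The procedure was tested on simulated data. The alternatives tried were scaling by RLE or upper quartile, omitting the filter or asking 10 counts of every library, DESeq2 1.42.0, a block for the replicate number, separate fits of each pair of groups, leaving out each library and, added after seeing the data, leaving out the libraries labelled K815Q. The counts per list in pairs of groups were also put through these alternatives afterwards.

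The members, lists and tests were chosen with earlier results of these data known. All 10 members were named. From each list and comparison up to 3 called genes per direction were named by lowest adjusted p, and the 5 genes most like and 3 least like Rbfox1 by correlation. Of each marker list the 2 most abundant genes were to be named, and only those of the cell types discussed are. Promoter windows came from RefSeq's table and were matched by symbol.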

Additional observations from a re-analysis of the deposited data

How the results depend on the processing

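Of the 9 regulators other than Rbfox1, the count called in the libraries labelled K815Q against LacZ was 1, and it was 2 without the filter (Celf1 and Ptbp1), 0 when the other 6 libraries were kept out of the model, and 0 to 2 when libraries were left out in turn. The count for any difference among the groups was 0 and ranged from 0 to 2 when libraries were left out, the 2 being Celf1 and Mbnl1 without K815Q replicate 2. The counts in the other 5 comparisons stayed at 0 under every alternative run. For other splicing regulators, any difference was called in 7, in 11 without the filter, in 4 without the libraries labelled K815Q and in 3 to 7 when libraries were left out (3 without LacZ replicate 2, 4 without WT replicate 2). For the core spliceosome the count was 0, with 2 without the filter, 1 under DESeq2, 1 with the replicate number as a block and 0 to 2 when libraries were left out. For splicing targets it was 1, with 2 under upper-quartile scaling, 8 without the filter, 6 under DESeq2 and 4 with the replicate block. It was 0 without the libraries labelled K815Q and 1 to 4 when libraries were left out. Calls over all genes for any difference were 1143, with 1188, 2036, 1175 and 1306 in the first of these settings, in that order. They were 859 without the libraries labelled K815Q and 650 to 1309 when libraries were left out. In pairs of groups, counts that moved by over 1.5 times outside leave-one-out were as follows. Without the filter, targets went from 0 to 3 in K815R against WT, 0 to 1 in labelled K815Q against WT and 0 to 3 in K815R against labelled K815Q, spliceosome genes from 0 to 1 in WT against LacZ and in labelled K815Q against WT, and other regulators from 1 to 2 in labelled K815Q against WT and 0 to 1 in K815R against labelled K815Q. DESeq2 gave the same 2 and 1 for other regulators, 2 targets in K815R against labelled K815Q and 1 spliceosome gene, in place of 2, in labelled K815Q against LacZ. Upper-quartile scaling gave 1 there as well, 3 targets in place of 5, and 1 target in K815R against labelled K815Q. Separate fits of each pair gave 1 target in WT against LacZ, as did leaving out the libraries labelled K815Q, 2 targets in labelled K815Q against WT and 1 other regulator in K815R against WT. Calls over all genes moved as well. In labelled K815Q against LacZ they were 1104, with 1528 without the filter, 999 under DESeq2 and 1034 in the separate fit. In K815R against labelled K815Q they were 51, with 307 without the filter, 101 under DESeq2 and 54 under upper-quartile scaling. The cause was not tested.

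Titles number the replicates alike in each group, but only 1 of 18 pairs with the same number deviated together by a correlation over 0.1 (range -0.13 to 0.12), and 5 of 12 libraries were closest to their own number. The replicate block left the member counts at 1 for the libraries labelled K815Q against LacZ and 0 elsewhere, and the 3 tested paralog ratios uncalled. Some uncalled log2 fold changes changed sign when a library was left out. For Mbnl2 the ranges were -0.0728 to 0.0987 (WT against LacZ), -0.0626 to 0.0364 (K815R against LacZ), -0.033 to 0.0948 (labelled K815Q against LacZ), -0.119 to 0.0524 (K815R against WT), -0.0702 to 0.101 (labelled K815Q against WT) and -0.115 to 0.0128 (K815R against labelled K815Q). For Rbm24 they were -0.0468 to 0.0832, -0.0312 to 0.0938 and -0.0804 to 0.0587 in the last 3 of these comparisons. Mbnl1 ran from -0.126 to 0.0535 in WT against LacZ and -0.0763 to 0.284 in K815R against labelled K815Q. Against LacZ, Celf2 ran from -0.0712 to 0.125 in WT and -0.167 to 0.0316 in K815R, and Rbfox2 from -0.081 to 0.0267 in K815R. Ptbp1 ran from -0.00275 to 0.116 in WT against LacZ and -0.0067 to 0.115 in K815R against WT. Ptbp2 ran from -0.129 to 0.0426 in labelled K815Q against WT and -0.163 to 0.00806 in K815R against labelled K815Q, and Rbm20 from -0.0359 to 0.014 in the latter. Spearman's rho, a prior count of 0.5 and RLE scaling kept the sign of the correlations with Rbfox1 named above. Depth limits the precision of Rbfox1, at 62 to 154 reads per library, and of Raver2, at 14 to 50 in LacZ and WT.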
